A study of Homo sapiens with 6 samples.

Results

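MDA-MB-231 is an established human breast cancer line of the mesenchymal, basal B kind that lacks hormone receptors and HER2 amplification. The cells were given an shRNA against TIP-1, named 162, and 2 clones of them (B1 and B4, here clones 1 and 2) were set against 2 clones with a control shRNA. These 4 arrays of the 6 in the series were chosen by the labels. The remaining 2 arrays came from clones A1 and A4 with a second TIP-1 hairpin, shRNA 159, which served for comparison. All cells were grown in RPMI 1640 with fetal bovine serum, trypsinised, seeded again and held overnight before total RNA was taken. Each clone was measured once on an Affymetrix Human Gene 1.0 ST array, with no technical replicate. Every row of the value table that carried a gene symbol was used, 21214 of 33297 rows. The clones are the replicates (n = 2 per group), so p-values weigh a difference between groups against the spread between clones within groups. What the hairpin does and what its 2 clones have in common for other reasons cannot be told apart in this design. In bulk RNA, fewer cells expressing a gene and less RNA per cell cannot be told apart either.

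TIP-1 is encoded by TAX1BP3. It is a small cytoplasmic protein made almost wholly of a PDZ domain, the fold that grips the carboxyl end of partner proteins such as beta-catenin. Serine can be taken up from the medium or built from the glycolytic intermediate 3-phosphoglycerate. PHGDH catalyses the first step of that route, PSAT1 the second and PSPH the last, and the SHMT enzymes then pass a carbon from serine to folate. Much of this pathway is switched on by the transcription factor ATF4 when amino acids run short. Contractile and bundled actin and the extracellular matrix are linked through integrins, and many of their genes are targets of serum response factor, which binds the CArG box.

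The 4 arrays were alike in overall level. On the log2 scale the medians of all 6 arrays lay between 7.37 and 7.44 and the deposited values between 2.29 and 14.65. The control clones correlated at 0.9971 and the shRNA 162 clones at 0.9971 across the rows tested, which are not independent replicates. A difference of 2-fold or more was seen in 0 rows between the control clones and in 6 rows between the shRNA 162 clones, against 100 to 107 rows between a control and an shRNA 162 clone. The cell line markers were present. VIM, the mesenchymal intermediate filament protein, stood at 13.19 and 13.18 in the control clones and at 13.19 and 13.14 with shRNA 162, and the adhesion receptor CD44 at 13.35 and 13.31 against 13.24 and 13.29. None of the 10 basal B markers measured lay below 6.68, the lowest lower quartile of the 6 arrays, which is used here as the limit of dim signal. The leukocyte antigen PTPRC was dim at 5.10 and 4.84 in the control clones and at 5.14 and 5.19 with shRNA 162.

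The targeted transcript was lower. The TAX1BP3 row also covers the readthrough P2RX5-TAX1BP3. It stood at 11.65 and 11.56 in the control clones and at 9.86 and 10.01 with shRNA 162. Like 23.2% of all rows, it was lower in both shRNA 162 clones than in both control clones. Its change was -1.68 on the log2 scale with a standard error (SE) of 0.08 (adjusted p = 4.37e-05 in limma), and 31.3% of the control signal remained. The shRNA 159 clones stood between, at 10.40 each, and shRNA 162 minus shRNA 159 was -0.47 (adjusted p = 0.013). The row of the neighbouring gene P2RX5 stood at 9.62 and 9.60 against 9.79 and 9.90, a change of 0.23 that did not pass (adjusted p = 0.112).

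Across the transcriptome, 2019 rows passed in the comparison of shRNA 162 with control (9.52% of rows tested, Benjamini-Hochberg adjusted p under 0.05 in limma). Of these, 1247 were higher (5.88%) and 772 lower (3.64%). Quantile normalization gave an even split, 1078 higher and 1074 lower, and moved the median change of all rows from 0.02 to -0.01. The number that passed fell to 526 without control clone 1, 636 without control clone 2, 697 without shRNA 162 clone 1 and 570 without clone 2. Non-overlap of the clones alone was common, with both shRNA 162 clones above both control clones in 33.2% of rows and below them in 23.2%. Changes of 2-fold or more that passed were few, 48 higher (0.226%) and 42 lower (0.198%). The direct comparison of the hairpins passed in 1834 rows (8.65%), higher with shRNA 162 in 983 (4.63%) and lower in 851 (4.01%). The test of shRNA 159 against the same controls passed in 537 rows (2.53%), 359 higher (1.69%) and 178 lower (0.839%). The largest decreases, led by PHGDH, ACTG2 and LCP1, fell on genes that were bright in control, and the largest increase, MAGEB2, on a gene that was dim there.

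**Figure D1:**
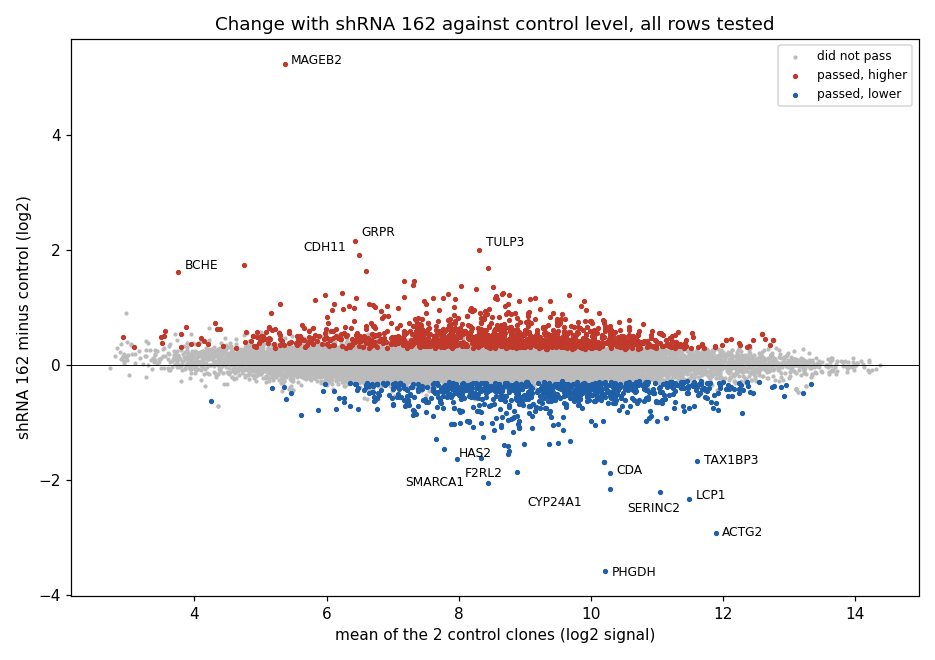
Change with shRNA 162 minus control (vertical axis, log2) against the mean of the 2 control clones (horizontal axis, log2 signal) for the 21214 rows tested, with red for rows that passed higher, blue for rows that passed lower and grey for the rest. MAGEB2 lies highest at 5.24 from a dim control level, and PHGDH (-3.58), ACTG2 (-2.93) and LCP1 (-2.34) lie lowest.

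PHGDH, the entry enzyme of serine synthesis, had the largest decrease of all rows tested. Its signal was 10.19 and 10.24 in the control clones and 6.59 and 6.68 with shRNA 162. The groups were far apart, and both shRNA 162 clones lay at the limit of dim signal. The change was -3.58 (SE 0.08, adjusted p = 2.34e-07), a decrease to 8.35% of control. With shRNA 159 the signal was 9.88 and 9.86, a change of -0.35, and shRNA 162 minus shRNA 159 was -3.23.

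The later enzymes of the route did not fall with PHGDH. PSAT1, which makes phosphoserine from the product of PHGDH, stood at 10.88 and 10.90 in control and at 11.25 and 11.24 with shRNA 162, and rose by 0.36 (adjusted p = 0.0295). MTHFD2, a mitochondrial folate enzyme, rose by 0.34 on its brighter row (adjusted p = 0.0313) and CTH, which makes cysteine from cystathionine, by 0.37 (adjusted p = 0.0382). These 3 increases were small and none passed when any 1 of the 4 clones was left out. The last enzyme of the route, PSPH, changed by 0.19 (adjusted p = 0.508) and -0.02 (adjusted p = 0.948) on its 2 rows, SHMT1 by 0.05 (adjusted p = 0.733) and SHMT2 by 0.09 (adjusted p = 0.498). None of these passed. Of the 27 genes measured on the serine and one-carbon list, 3 rose (11.1%, against 5.88% of all rows) and 1, PHGDH, fell (3.7%, against 3.64%). The other 23 did not pass, and the median change was 0.09 against 0.02 over all rows tested.

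The list of serine and amino acid carriers, which also holds the SERINC family, moved in both directions. Of its 33 genes, 3 were higher (9.09%, against 5.88% of all rows) and 3 lower (9.09%, against 3.64%). SLC7A11 was the carrier among the decreases, beside SERINC2 and SERINC3. Without 1 clone the increases numbered 0 or 1 and the decreases 1 or 2. SERINC2, of a membrane protein family named for adding serine to lipids, was the one with a large change. Its brighter row was 11.03 and 11.07 in control and 8.73 and 8.96 with shRNA 162, a change of -2.21 (SE 0.09, adjusted p = 1.67e-05) to 21.6% of control. The groups did not overlap, and 23.2% of all rows lay lower with shRNA 162 without overlap. The dimmer SERINC2 row gave -0.37, which did not pass (adjusted p = 0.118). The cystine carrier SLC7A11 fell by 0.46 and SERINC3 by 0.29. The taurine carrier SLC6A6 rose by 0.41, the large neutral amino acid carrier SLC7A5 by 0.32 and SLC43A2 by 0.33.

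On the ATF4 and unfolded protein list, 4 of 39 genes rose (10.3%, against 5.88% of all rows) and 1 fell (2.56%, against 3.64%), with a median of 0.03. Quantile normalization gave 3 higher and 5 lower, and without 1 clone 1 or 2 rose and 0 fell. ASNS, which makes asparagine, was 8.13 and 8.14 in control and 8.77 and 8.87 with shRNA 162, an increase of 0.69 (adjusted p = 0.00251). DDIT4, an inhibitor of mTORC1, rose by 0.71, the glutathione-degrading enzyme CHAC1 by 0.44 and CRELD2 by 0.37. SEL1L, of the endoplasmic reticulum degradation machinery, fell by 0.37. ATF4 itself changed by 0.06 on its brightest row and did not pass (adjusted p = 0.722).

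The promoters of PHGDH and ASNS are shown because these genes of amino acid synthesis moved in opposite directions. They come from RefSeq, build GRCh38.p14. The PHGDH stretch is chr1:119711814-119711933, plus strand, the 120 bases before the start. The ASNS stretch is chr7:97872444-97872501, minus strand, from 93 to 36 bases before the start. Capitals mark the ATF4 element TGATGNAA.
PHGDH: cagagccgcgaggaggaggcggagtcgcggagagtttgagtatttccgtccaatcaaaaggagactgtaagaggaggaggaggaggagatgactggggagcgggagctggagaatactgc
ASNS: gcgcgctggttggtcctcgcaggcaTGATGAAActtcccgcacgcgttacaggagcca
The 250 bases before each start were searched on both strands. ASNS holds 1 match in 1 of its 2 promoters and PHGDH none. The letters occur in 3.14% of the 35116 promoters searched and in promoters of 3.89% of 27305 genes. They were found in 2 of the 7 genes of the serine and ATF4 lists that rose, ASNS and CHAC1. A match is a description of the letters and not of binding.

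Among actin isoforms and contractile proteins, 7 of 31 genes measured fell (22.6%, against 3.64% of all rows) and 0 rose, with a median change of -0.13. ACTG2, the smooth muscle gamma actin, led them. Its signal was 11.93 and 11.85 in control and 9.06 and 8.86 with shRNA 162, a change of -2.93 (SE 0.09, adjusted p = 2.96e-06), which is a 7.62-fold decrease to 13.1% of control. The shRNA 159 clones, at 12.01 and 11.98, lay with the control clones. The actin genes are close relatives, and binding of one isoform's transcript to another's probes was not tested.

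The other 6 decreases on this list were smaller. CALD1, the actin-binding protein caldesmon, went from 9.61 and 9.63 to 9.08 and 8.71, a change of -0.73 (adjusted p = 0.00812). TAGLN, or SM22, went from 8.94 and 8.89 to 8.44 and 8.05, a change of -0.67 (adjusted p = 0.0124). MYL9, a regulatory myosin light chain, went from 11.19 and 11.17 to 10.68 and 10.64, a change of -0.52 (adjusted p = 0.00537). The groups did not overlap for any of the 3, as in 23.2% of all rows. CNN3 (calponin 3) fell by 0.35, and the myosin light chains MYL6 and MYL12B fell by 0.36 and 0.34. The cytoplasmic actins did not pass, with ACTB at -0.05 (adjusted p = 0.733) and ACTG1 at 0.00 (adjusted p = 0.991), nor did ACTA2 at -0.18 (adjusted p = 0.64) or SRF itself at -0.07 (adjusted p = 0.639). Without control clone 1 the count of 7 became 1, without control clone 2 it became 2, without shRNA 162 clone 1 it became 4 and without clone 2 it became 2. ACTG2 was lower in each of these fits.

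The promoter of ACTG2 is shown as that of the contractile gene with the largest decrease. The stretch is chr2:73892873-73892969, plus strand, from 135 to 39 bases before the RefSeq start on GRCh38.p14, and capitals mark 2 CArG boxes.
ACTG2: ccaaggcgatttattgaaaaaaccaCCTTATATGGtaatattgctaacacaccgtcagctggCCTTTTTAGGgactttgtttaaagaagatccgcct
A CArG box was found in 1.16% of all promoters and in promoters of 1.44% of genes. Of the 14 actin and contractile genes that fell, 11 had a promoter in the table and 2 of these held the box, ACTG2 and ACTN1.

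Genes of actin assembly, bundling and crosslinking fell in 7 of 57 cases (12.3%, against 3.64% of all rows) and rose in 2 (3.51%, against 5.88%), with a median of -0.10. LCP1 (plastin 2), an actin bundler of leukocytes and of many carcinoma lines, was 11.51 and 11.46 in control and 9.10 and 9.18 with shRNA 162. The change was -2.34 (SE 0.08, adjusted p = 3.75e-06), a 5.07-fold decrease with no overlap, as in 23.2% of all rows. It changed by -1.31 with shRNA 159. LCP1 is also a leukocyte gene, and beside it the 19 leukocyte markers summed on the linear scale to 8865 and 9387 in control and to 7926 and 8172 with shRNA 162. Of those markers, 5 were dim on all 4 arrays, PTPRC among them, and LAPTM5 alone fell, by 0.32. Their part in the result was not tested.

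The related bundlers went other ways. PLS1 (plastin 1) rose by 0.54, and PLS3 (plastin 3) changed by -0.28 without passing (adjusted p = 0.0574). The actin-severing protein CFL2 fell by 0.56 (adjusted p = 0.00674) and the crosslinker ACTN1 by 0.48 (adjusted p = 0.0061). Both genes lie in stretches of chromosome 14 in which many neighbours fell, which leaves 5 decreases outside such stretches. Outside chromosomes 3, 8 and 14, 4 of 52 genes of this list fell and 1 rose. The LIM domain proteins PDLIM7 and PDLIM5 fell by 0.51 and 0.36, the capping protein CAPG by 0.34 and profilin 2 (PFN2) by 0.33. The membrane linker SVIL rose by 0.42. Quantile normalization raised the 7 decreases to 15. Leaving out control clone 1 gave 1, control clone 2 gave 4, and either shRNA 162 clone gave 2.

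**Figure D2:**
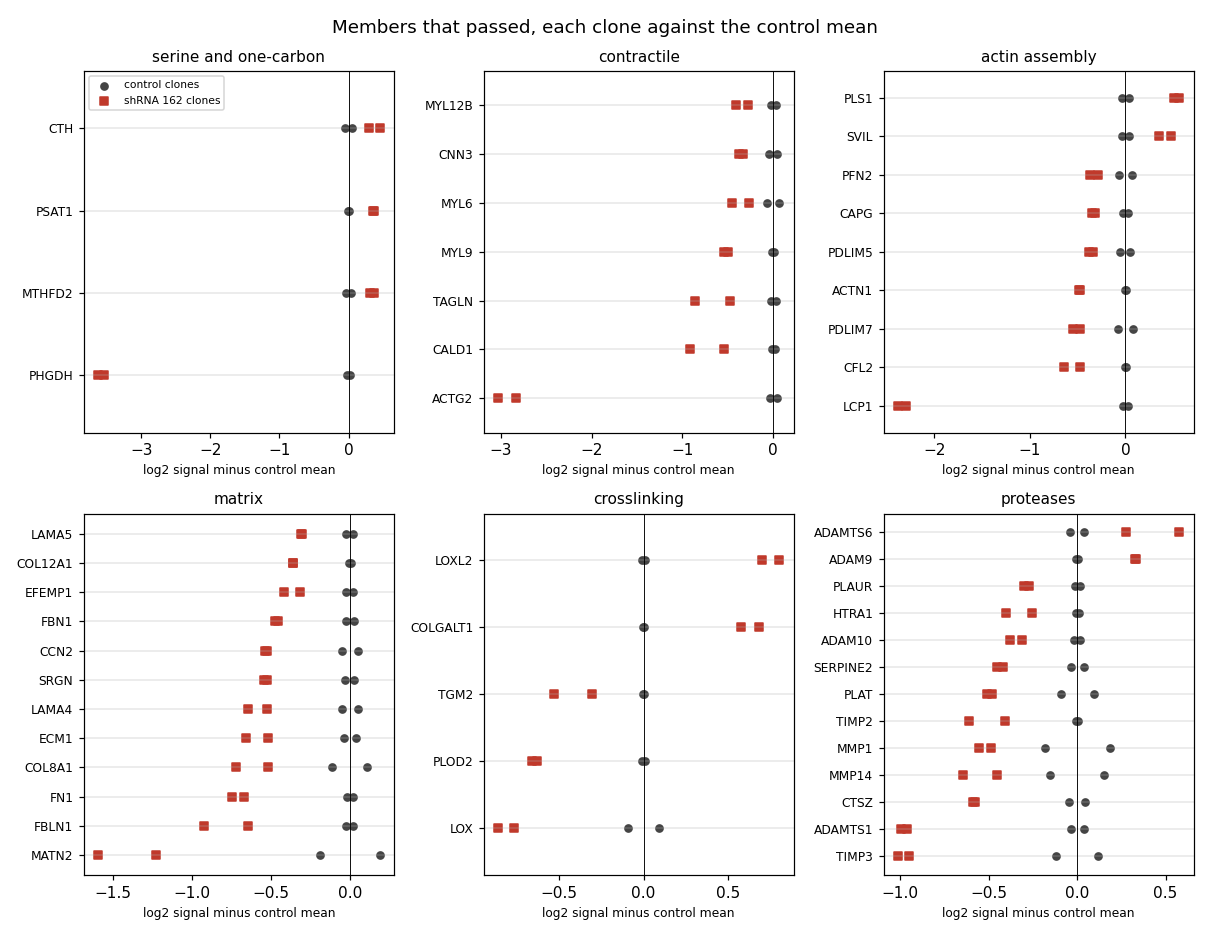
Each clone's log2 signal minus the control mean (horizontal axes) for the members that passed in 6 lists, with grey circles for the 2 control clones and red squares for the 2 shRNA 162 clones. In the contractile panel all 7 genes lie to the left of the control clones and ACTG2 farthest at -2.93, and in the serine panel PHGDH lies alone on the left at -3.58.

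Integrin and focal adhesion genes fell in 6 of 41 cases (14.6%, against 3.64% of all rows) and rose in 3 (7.32%, against 5.88%), with a median of 0.00. Without any 1 of the 4 clones, 1 fell and 1 rose. ITGB3, the beta3 subunit, and PARVA fell by 0.49 each, ITGA3 and ILK by 0.40 each and TNS1 by 0.42. FERMT1 (kindlin 1) rose by 0.57 and the kinase PTK2, or FAK, by 0.37. Of the known partners of TIP-1, 1 of 16 fell (6.25%, against 3.64% of all rows) and 0 rose (against 5.88%). That gene was DLG1, a scaffold with PDZ domains, at -0.93, and it lies in a stretch of chromosome 3 with lower neighbours. CTNNB1, which encodes beta-catenin, changed by -0.12 and did not pass (adjusted p = 0.379).

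Fibrillar matrix and matrix glycoprotein genes fell in 12 of 63 cases (19%, against 3.64% of all rows) and rose in 0, with a median of -0.06. MATN2 (matrilin 2), an adaptor of the filamentous matrix, was 8.93 and 8.55 in control and 7.14 and 7.51 with shRNA 162, a change of -1.41 (adjusted p = 0.00177). FN1, or fibronectin, was 11.55 and 11.58 against 10.89 and 10.82, a change of -0.71 (adjusted p = 0.00218). FBLN1 (fibulin 1) was 7.99 and 8.03 against 7.08 and 7.36, a change of -0.78 (adjusted p = 0.004). For all 3 genes both shRNA 162 clones lay below both control clones, as they did in 23.2% of all rows. The other decreases were COL8A1 (-0.62), ECM1 (-0.59), the laminin chains LAMA4 (-0.58) and LAMA5 (-0.31), serglycin or SRGN (-0.53), CCN2 (-0.53), fibrillin 1 or FBN1 (-0.46), EFEMP1 (-0.36) and COL12A1 (-0.36). All 12 genes lie outside the stretches of neighbouring genes described below, but such stretches hold only 4.4% of all genes. Outside chromosomes 3, 8 and 14, 10 of 56 genes of this list fell and 0 rose. Leaving out any 1 of the 4 clones gave 7 decreases.

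The hairpins parted in some of these genes. EFEMP1 changed by 0.78 with shRNA 159, and shRNA 162 minus shRNA 159 was -1.15 for EFEMP1 and -0.92 for FN1. COL12A1 changed by -0.77 with shRNA 159 and shRNA 162 minus shRNA 159 was 0.41 (both genes and FN1 passed this test). Beside the matrix genes, the 17 fibroblast and endothelial markers summed on the linear scale to 4496 and 4543 in control and to 3703 and 3616 with shRNA 162. Of these markers 9 were dim on all 4 arrays, and ENG (endoglin) alone fell, by 0.65. Their part in the result was not tested.

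Enzymes that mature and crosslink collagen moved in both directions, 3 of 26 lower (11.5%, against 3.64% of all rows) and 2 higher (7.69%, against 5.88%). The lysyl oxidase LOX fell by 0.81, the lysyl hydroxylase PLOD2 by 0.64 and the transglutaminase TGM2 by 0.42. LOXL2, a relative of LOX, rose by 0.75, and the collagen galactosyltransferase COLGALT1 by 0.63. LOXL2 lies in a stretch of chromosome 8 in which most neighbours rose.

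Among the enzymes of hyaluronan and proteoglycan sugars, 5 of 38 fell (13.2%, against 3.64% of all rows) and 0 rose. Without 1 clone 2 or 3 fell. HAS2, a hyaluronan synthase, was 8.67 and 8.83 in control and 7.40 and 7.01 with shRNA 162, a change of -1.55 (SE 0.13, adjusted p = 0.000469) to 34.2% of control. It lies on chromosome 8 among neighbours of which 25 of 59 rose, and it was the 1 gene of that stretch that fell. With shRNA 159 its change was -1.44. The glypicans GPC6 and GPC1 fell by 0.74 and 0.40, the heparan sulfate polymerase EXT2 by 0.65 and CHPF, of chondroitin synthesis, by 0.42.

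Matrix proteases and their inhibitors fell in 11 of 53 cases (20.8%, against 3.64% of all rows) and rose in 2 (3.77%, against 5.88%). Outside chromosomes 3, 8 and 14, 9 of 46 genes of this list fell and 1 rose. ADAMTS1, a secreted metalloprotease of proteoglycans, was 9.96 and 10.04 in control and 9.00 and 9.03 with shRNA 162, a change of -0.98 (adjusted p = 0.000699). TIMP3, a metalloprotease inhibitor bound to the matrix, was 10.89 and 11.12 against 10.05 and 9.99, also a change of -0.98 (adjusted p = 0.000879). Neither gene's groups overlapped, and 23.2% of all rows lay lower with shRNA 162 without overlap. Both enzymes and inhibitors were among the decreases. The enzymes were CTSZ (-0.58), MMP14 (-0.55), MMP1 (-0.52), PLAT (-0.49), ADAM10 (-0.35) and HTRA1 (-0.33). TIMP2 (-0.51) and SERPINE2 (-0.44) are inhibitors, and PLAUR, the urokinase receptor, changed by -0.29. ADAM9 rose by 0.33 and ADAMTS6 by 0.43. Without control clone 1 the count of 11 became 5, without control clone 2 or shRNA 162 clone 1 it became 4, and without shRNA 162 clone 2 it became 3.

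**Figure D3:**
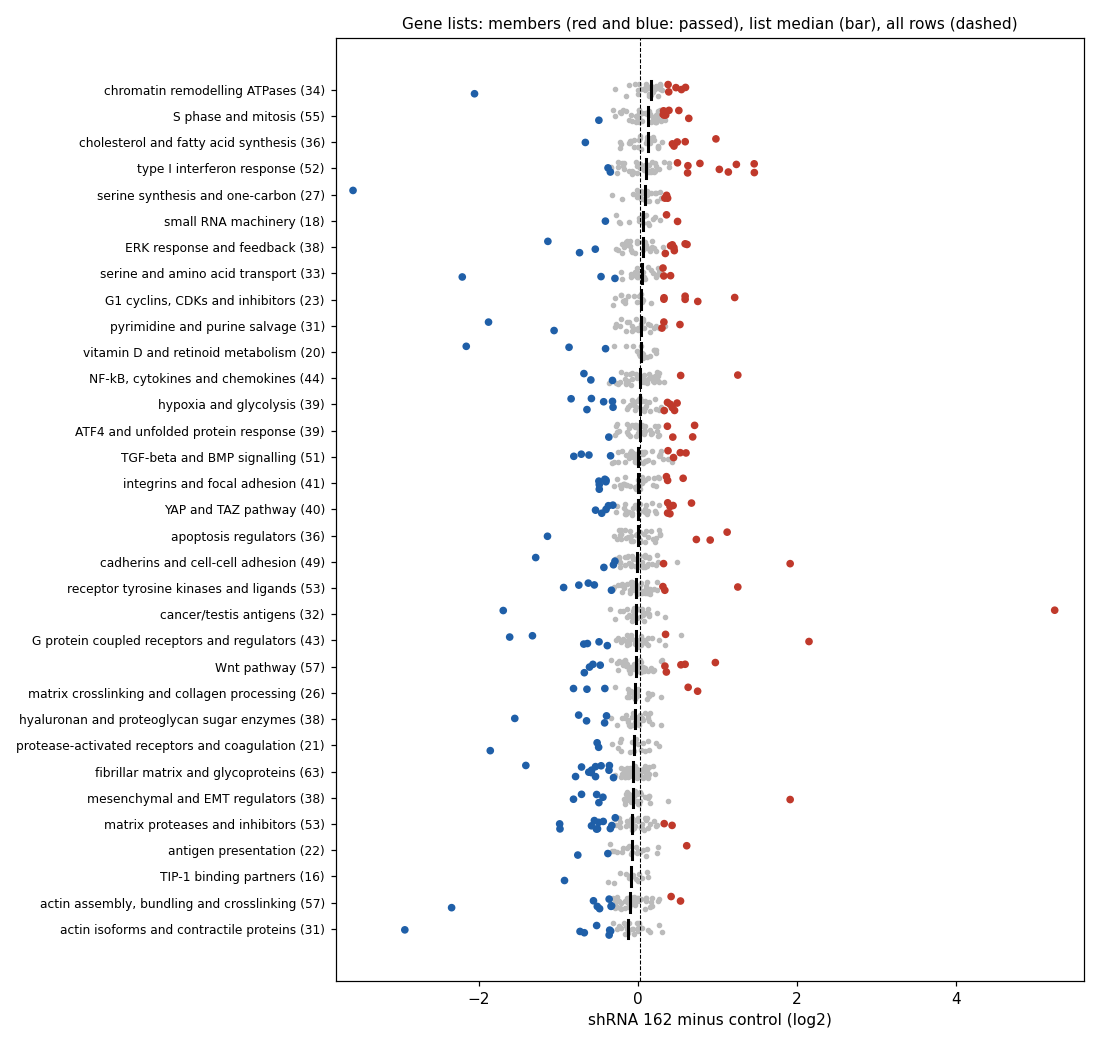
Change with shRNA 162 minus control (horizontal axis, log2) for the measured members of 33 gene lists (number of members in brackets), ordered by their median (black bar), with red and blue points for members that passed and a dashed line for the median of all rows. The contractile list has the lowest median (-0.13), and the interferon list (median 0.10) holds 9 members that rose.

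Beyond these groups, the largest decreases fell on genes of varied function. CYP24A1, which inactivates vitamin D, went from 10.26 and 10.32 to 7.99 and 8.26, a change of -2.16 (adjusted p = 2.82e-05). SMARCA1, an ATPase of the ISWI chromatin remodelers, changed by -2.05, the pyrimidine salvage enzyme CDA by -1.88, and F2RL2 (PAR3), a thrombin receptor, by -1.86. Rows whose clones overlapped were not eligible for this ranking. The rest of the 19 genes with the largest decreases were SPANXB1, a cancer/testis antigen of a family of near-identical copies (-1.69), CPED1 (-1.64), RGS4, a brake on G protein signals (-1.61), MAMDC2 (-1.49), the surface protein CD24 (-1.47), RASSF2 (-1.40), TMEM40 (-1.37), the elongation factor EEF1A2 (-1.37) and the tight junction protein CLDN11 (-1.36), beside PHGDH, ACTG2, LCP1, SERINC2, HAS2 and MATN2.

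Of the 20 rows of these genes, 18 differed from shRNA 159 in the direct test, against 8.65% of all rows. The rows were chosen by their change with shRNA 162, whose arrays also enter that test, so a high share is partly built in. The difference, shRNA 162 minus shRNA 159, was -2.13 for SERINC2, -1.92 for CYP24A1 and -1.70 for EEF1A2. For F2RL2 and HAS2 the direct test did not pass, and their changes with shRNA 159, from the same control clones, were -1.64 and -1.44. None of the rows was dim in control, and 3 were dim with shRNA 162.

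MAGEB2 had the largest change of all rows. It encodes a cancer/testis antigen, a kind of protein normally made in germ cells and often silenced elsewhere by DNA methylation. The signal was dim at 5.39 and 5.34 in control and 10.64 and 10.57 with shRNA 162, a change of 5.24 (SE 0.11, adjusted p = 2.34e-07), or 37.7-fold. With shRNA 159 the change was 0.19, and the level with shRNA 162 was 5.05 above that with shRNA 159. It was the 1 gene that rose among the 32 cancer/testis antigens with a row of their own (3.12%, against 5.88% of all rows). Another 18 shared rows with others.

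The next increases included a receptor, a cadherin and a secreted ligand. GRPR, the receptor of gastrin-releasing peptide, was 6.38 and 6.48 in control and 8.60 and 8.57 with shRNA 162, a change of 2.15 (adjusted p = 1.67e-05). CDH11, a mesenchymal cadherin, was 6.53 and 6.47 against 8.52 and 8.30, a change of 1.91 (adjusted p = 5.08e-05). NRG1, a ligand of the ERBB receptors, was 8.27 and 8.63 against 10.25 and 10.04 on the row with the larger change (1.70, adjusted p = 0.000336). These genes too were ranked among rows without overlap of clones. The control signals of GRPR and CDH11 were dim, so their folds rest on a faint baseline. With shRNA 159 the change of GRPR was 0.77 and that of CDH11 0.00.

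The rest of the 19 genes with the largest increases were TULP3, of ciliary transport (2.00), the neuronal membrane protein LRRN1 (1.74), the nucleosome-binding HMGN5 (1.63), BCHE, or butyrylcholinesterase (1.62), IFIT1 and IFIT2 (1.46 each), PYROXD1 (1.39), FLG, or filaggrin (1.37), ENTPD4 (1.35), the axon guidance ligand SEMA3A (1.31), the cytokine IL1A (1.25), the mitochondrial iron carrier SLC25A37 (1.24), SAMD9 (1.24), the G1 kinase CDK6 (1.22) and TMEM108 (1.21). Of their 20 rows, 16 differed from shRNA 159 in the direct test, 8 were dim in control and 2 were dim with shRNA 162 as well. These rows too were chosen by their change with shRNA 162, and 8.65% of all rows differed. TULP3, BCHE, SEMA3A and CDK6 did not pass the direct test. Their changes with shRNA 159 included 1.65 for TULP3 and 2.18 for BCHE.

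**Figure D4:**
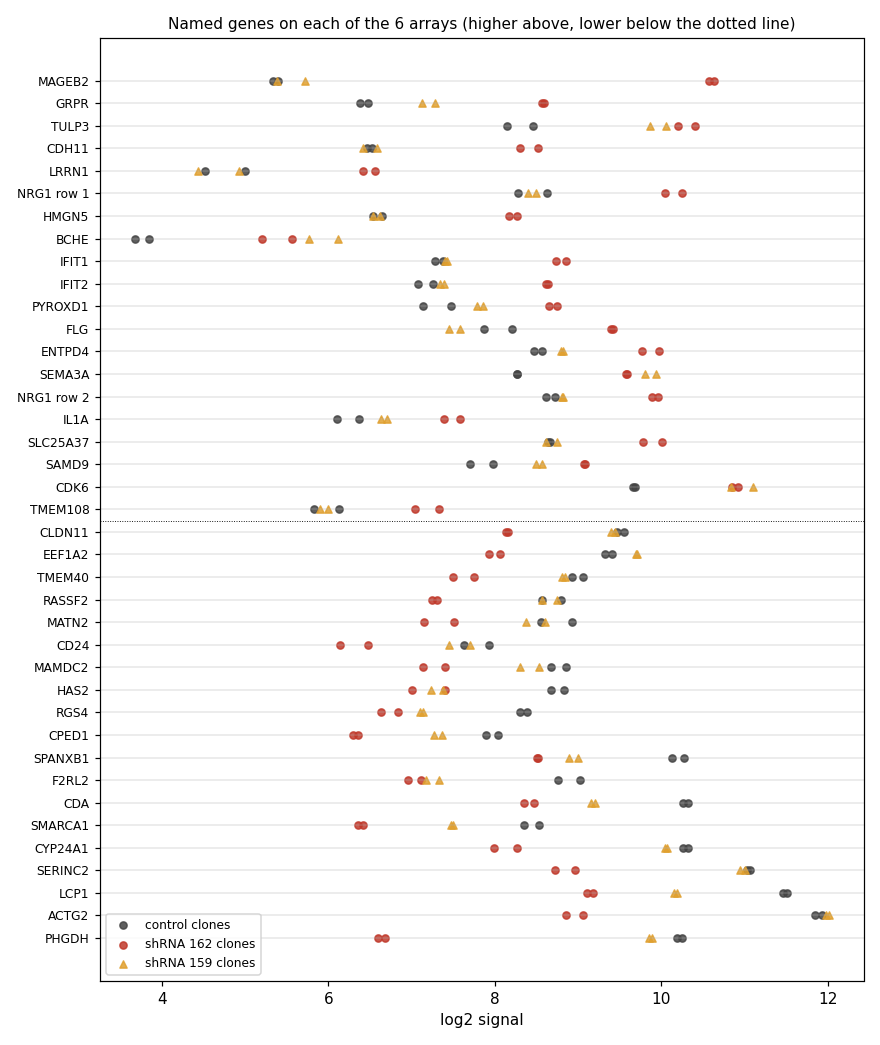
Log2 signal (horizontal axis) on each of the 6 arrays for the 20 rows with the largest increases (above the dotted line) and 19 of the 20 rows with the largest decreases (below it; SPANXB1 has 2 identical rows and is drawn once), with grey circles for control, red circles for shRNA 162 and triangles for shRNA 159 clones. The rows were chosen among those whose shRNA 162 and control clones did not overlap. The shRNA 162 clones of PHGDH lie at 6.59 and 6.68 against 10.19 and 10.24 in control, and the triangles of ACTG2 lie at 12.01 and 11.98 with its control clones.

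Genes of the type I interferon response, which restrict virus growth, rose in 9 of 52 cases (17.3%, against 5.88% of all rows). They fell in 2 (3.85%, against 3.64%), with a median of 0.10. IFIT1, which binds foreign RNA ends, was 7.28 and 7.38 in control and 8.85 and 8.74 with shRNA 162, a change of 1.46 (SE 0.08, adjusted p = 7.27e-05). IFIT2 was 7.25 and 7.08 against 8.62 and 8.64, also 1.46 (adjusted p = 8.71e-05). Neither gene overlapped between groups, and 33.2% of all rows lay higher with shRNA 162 without overlap. The direct test set both genes above shRNA 159, by 1.38 and 1.26. IFI44 rose by 1.14, IFIT3 by 0.78, OASL by 0.63, HERC5 by 0.62 and PLSCR1 by 0.50. SAMD9 and its relative SAMD9L rose by 1.24 and 1.02, and both lie in a stretch of chromosome 7 in which many genes rose. The transmembrane proteins IFITM3 and IFITM1 fell by 0.38 and 0.35.

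The promoters of IFIT1 and IFIT3 are shown because both genes rose and hold the interferon-stimulated response element (GAAA, any 2 bases and GAAA again, or its complement, in capitals). On GRCh38.p14, IFIT1 is given at chr10:89392482-89392554, from 141 to 69 bases before the RefSeq start, and IFIT3 at chr10:89327816-89327909, from 181 to 88 bases before it, both on the plus strand.
IFIT1: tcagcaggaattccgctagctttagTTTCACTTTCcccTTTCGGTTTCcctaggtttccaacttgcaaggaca
IFIT3: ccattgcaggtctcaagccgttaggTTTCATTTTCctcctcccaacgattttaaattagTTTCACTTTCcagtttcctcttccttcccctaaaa
These letters occur in 3.02% of the 35116 promoters and in promoters of 3.71% of genes. Of the 9 interferon genes that rose, 7 had a promoter in the table and 6 of these held the element: HERC5, IFI44, IFIT1, IFIT3, PLSCR1 and SAMD9. The element was not counted in the list's genes that did not rise, so this count cannot set the risen genes apart from the list.

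In the remaining lists, shares are to be read against 5.88% of all rows higher and 3.64% lower. Cholesterol and fatty acid synthesis rose in 5 of 36 cases (13.9%) with a median of 0.12, and 2 to 4 rose without 1 clone. The epoxidase SQLE (0.98) and CYP51A1 (0.59) lie in runs of higher neighbours, and the 3 others, ACACA (0.49), HMGCS1 (0.45) and FASN (0.43), do not. The lysosomal carrier NPC2 fell by 0.66. Outside chromosomes 3, 8 and 14, 4 genes of this list rose and 0 fell. Genes of S phase and mitosis rose in 7 of 55 cases (12.7%) with a median of 0.13, such as MCM2 (0.51), but in 1 or 2 without 1 clone. FOXM1 (0.39) and DBF4 (0.64) among them lie in runs, and the mitotic kinase AURKA fell by 0.49. Of 23 genes of G1 control, 6 rose (26.1%) and 0 fell, and 4 rose without 1 clone. CDK6, CDKN1B, DMTF1 and MYC lie in runs, which leaves 2. The receptor genes TNFRSF10A (1.12), TNFRSF10B (0.91) and TNFRSF10D (0.73), all in a run on chromosome 8, were the 3 apoptosis genes of 36 that rose (8.33%). In chromatin remodelling 5 of 34 rose (14.7%), among them BAZ1B (0.60), CHD7 (0.55) and CHD3 (0.48), but 0 to 3 without 1 clone, while SMARCA1 alone fell.

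Signalling lists held changes in both directions. TGF-beta and BMP genes rose in 4 of 51 cases (7.84%) and fell in 4 (7.84%). ID1 (0.60) and ID3 (0.45) were higher and FSTL1 (-0.81) and the ligand BMP4 (-0.71) lower. Outside chromosomes 3, 8 and 14, 3 genes of this list rose and 2 fell. Without 1 clone 0 to 2 rose and 1 or 2 fell. Wnt genes rose in 5 of 57 cases (8.77%) and fell in 4 (7.02%), or in 2 or 3 each without 1 clone. Outside runs 2 rose and 3 fell, since the receptor FZD3 (0.97), LRP6 (0.54), MYC (0.59) and DVL3 (-0.61) lie in runs. The ligand WNT5A changed by -0.57. YAP and TAZ genes rose in 6 of 40 cases (15%), AMOT at 0.67, and fell in 5 (12.5%), CCN2 at -0.53, but without any 1 clone 1 rose and 1 fell. Of 39 hypoxia and glycolysis genes 6 rose (15.4%) and 6 fell (15.4%), HIF1A by 0.84. Outside chromosomes 3, 8 and 14, 6 rose and 3 fell. Without 1 clone 0 or 1 rose and 3 fell, and SLC2A3, ENO2 and LDHB among the increases lie in runs. The ERK list rose in 7 of 38 cases (18.4%) and fell in 3 (7.89%), with the phosphatase DUSP10 at 0.62 and the EGF receptor ligand TGFA at -0.73, and 2 to 4 rose without 1 clone. Receptor tyrosine kinases and their ligands rose in 3 of 53 cases (5.66%) and fell in 5 (9.43%), such as FGF1 (-0.93) and EFNB2 (-0.74). NRG1 and FGFR1 lie in runs, which leaves 1 increase outside, and 2 or 3 fell without 1 clone.

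Among EMT regulators 5 of 38 fell (13.2%), SNAI2 by 0.52, and CDH11 alone rose, with 2 to 4 lower without 1 clone. On the NF-kB and cytokine list 2 of 44 genes rose (4.55%), IL1A and IL6 (0.54), and 3 fell (6.82%), IL1B (-0.68) among them, or 1 or 2 each way without 1 clone. IL1RAP (-0.59) and TNFAIP2 (-0.32), the other decreases, lie in runs. G protein coupled receptors and their regulators fell in 6 of 43 cases (14%), OXTR by 0.39, and rose in 2 (4.65%), with 3 or 4 lower without 1 clone. Coagulation genes fell in 3 of 21 cases (14.3%), TFPI by 0.51, or in 1 or 2 without 1 clone. Cadherins and other adhesion genes rose in 2 of 49 cases (4.08%) and fell in 4 (8.16%), CD96 by 1.28, or 1 each without any 1 clone. Antigen presentation rose in 1 of 22 cases (4.55%), IFI30 (0.61), and fell in 2 (9.09%), HLA-DMA (-0.76) and PSMB9 (-0.38), with 0 or 1 lower without 1 clone. In vitamin D and retinoid metabolism 3 of 20 fell (15%), with RARB at -0.87. In nucleotide salvage 3 of 31 rose (9.68%), with APRT at 0.53, and 2 fell (6.45%), but 0 or 1 rose without 1 clone. Of 18 genes of small RNA processing, AGO2 (0.50) and XPO5 (0.36) rose (11.1%) and DICER1 (-0.41) fell (5.56%). Outside chromosomes 3, 8 and 14, 1 of 16 genes of this list rose and 0 fell. None of the changes of AGO2, XPO5 and DICER1 passed in every fit without 1 clone. Among markers, AGR2 (0.46) was the 1 of 15 luminal genes (6.67%) and ENO2 (0.33) the 1 of 14 melanocyte and neural genes (7.14%) that rose. KRT8 (-0.44) was the 1 of 10 basal B genes (10%) that fell.

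Many moderate changes with shRNA 162 were shared by neighbours on a chromosome. Of 591 protein-coding genes measured on chromosome 8, 126 rose (21.3%) and 12 fell. Of 526 on chromosome 14, 110 fell (20.9%) and 4 rose, and the chromosome's median change was -0.17, against -0.01 with shRNA 159. Genes were put in order, and windows of 15 genes with a median change beyond 0.296 in either direction were joined into stretches, here called runs. The limit of 0.296 was the largest window median of the difference between the 2 clones of a group, control or shRNA 162. There were 13 runs of higher genes (552 genes, of which 261 passed higher) and 9 of lower genes (258 genes, of which 126 passed lower). Of all genes with a row of their own, 5.97% rose and 3.84% fell. Runs were picked by these same changes, so high shares of passing genes within them are built in.

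The run with the most increases for its length was on chromosome 8 from CHRNA2 to ZMAT4, where 43 of 68 genes rose and 0 fell, with a mean of 0.48 against 0.01 with shRNA 159. It holds NRG1 and the helicase gene WRN. A second run on this chromosome, from PHYHIP to CDCA2, held LOXL2, ENTPD4, SLC25A37 and the TNFRSF10 genes. On chromosome 3 the runs of lower genes included PRKCI to RFC4, with 44 of 84 genes lower and a mean of -0.39, and ACAP2 to LMLN, with 21 of 33 lower and a mean of -0.47. The run on chromosome 7 from BUD23 to BET1, with CDK6, SAMD9 and SEMA3A, had a mean of 0.34 with shRNA 162 and 0.67 with shRNA 159. The shRNA 162 clones moved together, since the mean of any window differed between them by -0.19 to 0.12. For the control clones this range was -0.21 to 0.24.

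Runs hold 810 of the 18417 genes with a row of their own (4.4%). Of the 19 genes with the largest increases 8 lie in a run, and of the 19 with the largest decreases 2, HAS2 and CLDN11. Of contractile genes 1 of 31 lies in a run (3.23%), of matrix genes 2 of 63 (3.17%) and of protease genes 1 of 53 (1.89%). None of these is a gene that fell. Beside the 4.4% of all genes, these counts are too small to set the lists apart. Of the 57 actin assembly genes 2 lie in runs, CFL2 and ACTN1, and both fell. Of the 38 hyaluronan and proteoglycan sugar genes 2 lie in runs, and HAS2 fell. PHGDH and SERINC2 lie outside. Without the genes of runs, 838 of 17607 remaining genes rose (4.76%) and 578 fell (3.28%), and 7 of the 50 interferon genes left rose.

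**Figure D5:**
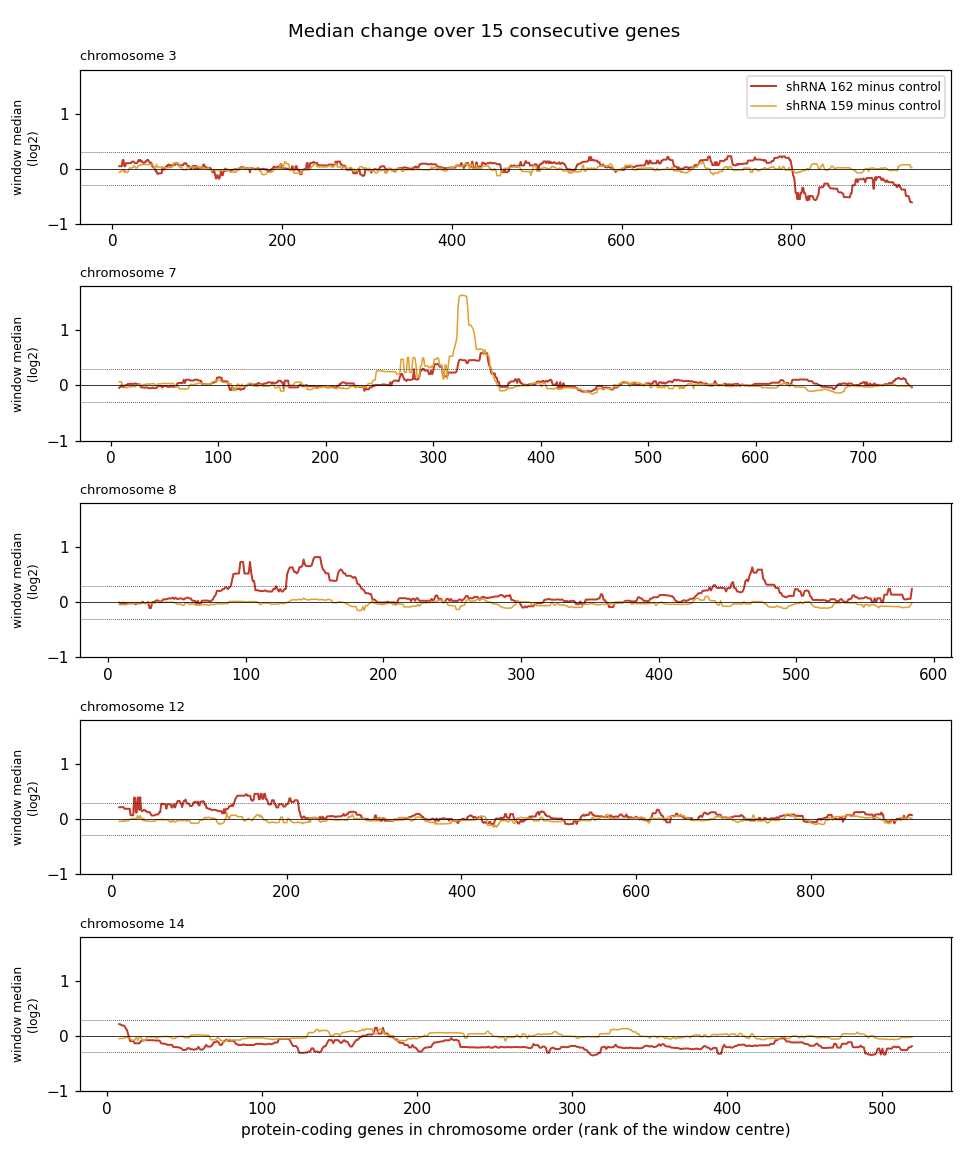
Median change over windows of 15 consecutive protein-coding genes (vertical axes, log2) along chromosomes 3, 7, 8, 12 and 14 (horizontal axes, rank of the window centre), in red for shRNA 162 minus control and in yellow for shRNA 159 minus control, with dotted lines at 0.296 on either side. The red line leaves these limits on chromosomes 3 and 8 while the yellow line stays near 0 there, and on chromosome 7 both lines rise.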

How the data were processed

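Transcript levels were measured on 6 Affymetrix Human Gene 1.0 ST arrays. The values are log2 signals per probe set, which the authors made with the Affymetrix Exon Array Computational Tool, per the labels. The settings were not given in the sources used here, and the base was read from the range of the values. Arrays have no depth in counts, and precision is limited by the number of arrays. The platform's probe table gave 1 symbol to 19460 rows, several to 1754 and none to 12083. A row with several symbols cannot be assigned to 1 gene. Of the tested rows, 403 repeat an earlier row.

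Groups came from the titles. Values were used without further scaling. A model with 3 groups was fitted by lmFit and eBayes of limma 3.58.1 under R 4.3.3, with 3 residual and 5.31 prior degrees of freedom, two-sided, with Benjamini-Hochberg adjustment over 21214 rows and a threshold of 0.05. The 39 gene lists, 5 of them cell markers, were counted without a test, each gene by its row with the highest mean. Values for 1 of the lists are left out here. On simulated rows of shRNA 162 minus control, 50 rows were changed at each size, fewer than passed in the data. There the fit recovered 24% of changes of 0.5 and 82% of changes of 1 (log2), with 6 false calls. Order along chromosomes and promoters came from RefSeq (GRCh38.p14). Figures were drawn with matplotlib 3.10.9.

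Named genes were TAX1BP3, P2RX5, the 20 largest changes each way among rows of 1 protein-coding gene that passed without overlap of clones, the members that passed of the serine, actin, matrix, crosslinking and protease lists, PHGDH, PSAT1, PSPH, SHMT1 and SHMT2, up to 6 members with the smallest p of every other list, and genes of the extreme windows. Defining genes that did not pass, genes at the ends of runs, and PLS3 and those of the closing observations, chosen after their values were seen, were also named. The members and lists were chosen with earlier results of these data known. Alternatives were quantile normalization, brighter rows, all rows, rows with 1 symbol, a variance trend, the 4 arrays alone, a replicate block, identical rows once, a 2-fold limit and leaving out each clone. Runs by window medians and fits without their genes were added after seeing the data.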

Additional observations from a re-analysis of the deposited data

Results flagged for a closer look

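Of 86 genes or rows compared between the hairpins, 62 differed in limma's direct test of shRNA 162 minus shRNA 159, 40 lower and 22 higher with shRNA 162. The 86 were the rows with the largest changes, the TAX1BP3 row and the serine, actin, matrix, crosslinking and protease genes that passed against control. The same shRNA 162 arrays entered both tests, so this choice raises the share above the 8.65% of all rows. Most of these lists held mainly decreases, which weights the split. Values here are differences between the hairpins on the log2 scale.

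Lower with shRNA 162 were the serine and surface genes PHGDH (-3.23), SERINC2 (-2.13) and CD24 (-1.27). Among actin genes these were ACTG2 (-3.04), LCP1 (-1.03), TAGLN (-1.02), CALD1 (-0.84), MYL9 (-0.57), PDLIM5 (-0.47), ACTN1 (-0.46) and CFL2 (-0.46). Matrix and crosslinking genes lower with shRNA 162 were MATN2 (-1.16), EFEMP1 (-1.15), MAMDC2 (-1.14), FBLN1 (-0.99), FN1 (-0.92), LOX (-0.90), LAMA5 (-0.51), LAMA4 (-0.47), CCN2 (-0.44), TGM2 (-0.42) and SRGN (-0.38). Proteases, inhibitors and receptors were PLAT (-0.55), CTSZ (-0.55), TIMP2 (-0.52), MMP14 (-0.52), TIMP3 (-0.46), PLAUR (-0.37) and ADAM10 (-0.30). The remaining genes lower with shRNA 162 were CYP24A1 (-1.92), EEF1A2 (-1.70), RASSF2 (-1.38), CLDN11 (-1.27), TMEM40 (-1.20), SMARCA1 (-1.10), CPED1 (-0.99), CDA (-0.77), TAX1BP3 (-0.47), SPANXB1 (-0.44) and RGS4 (-0.38).

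Higher with shRNA 162 than with shRNA 159 were MAGEB2 (5.05), CDH11 (1.91), FLG (1.89), LRRN1 (1.81), NRG1 (1.70 and 1.11 on 2 rows), HMGN5 (1.64), GRPR (1.38), IFIT1 (1.38), IFIT2 (1.26), TMEM108 (1.24), SLC25A37 (1.22), ENTPD4 (1.06), PYROXD1 (0.87), IL1A (0.82), ADAM9 (0.75), LOXL2 (0.68), SAMD9 (0.55), PLS1 (0.52), COLGALT1 (0.43), COL12A1 (0.41) and PSAT1 (0.41).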

How the results depend on the processing

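The 40 rows with the largest changes kept their call and direction under every alternative in which they were tested, and 29 of them were bright enough for the fit on brighter rows. They were chosen as the largest changes that passed without overlap of clones, which favours this outcome. The other 206 named rows held less well, with 117 to 142 no longer past the threshold without 1 clone, 125 on all rows, 10 with quantile normalization, 8 with the replicate block and 2 with a variance trend. The rows that passed for shRNA 162 minus control (2019) became 3044 on brighter rows, 691 on all rows, 3482 with a variance trend, 90 with a 2-fold limit and 526 to 697 without 1 clone. The higher rows became 1906, 419, 2209, 48 and 303 to 424. The lower rows became 272 on all rows, 1273 with the trend, 42 with the 2-fold limit and 220 to 273 without 1 clone. For shRNA 162 minus shRNA 159 the count (1834) became 593 on all rows, 3022 with the trend and 597 to 1272 without 1 clone. It was 597 without shRNA 162 clone 1, 651 without clone 2 and 1204 without shRNA 159 clone 2. Genes that fell on the serine list numbered 2 on brighter rows, 3 with the trend and 1 without any 1 clone. Contractile decreases became 2 on all rows and 1 to 4 without 1 clone. Actin assembly decreases became 15 with quantile normalization, 16 on brighter rows, 3 on all rows, 19 with the trend and 1 to 4 without 1 clone. Matrix decreases became 7 without any 1 clone, and protease decreases 3 on all rows and 3 to 5 without 1 clone. SHMT1 changed sign with quantile normalization (-0.002) and the dimmer PSPH row without shRNA 162 clone 1, its values without 1 clone running from -0.15 to 0.118. Leaving out a clone uses fewer samples and the brighter rows are fewer tests; other causes were not tested. The main fit did not pair the samples by clone number. Deviations of clones with the same number correlated at -0.052 for control and shRNA 162 and at 0.263 for control and shRNA 159. For the 2 TIP-1 hairpins the value was -0.028. Whether clones with the same number shared an effect was not tested. With the replicate block 2128 rows passed, 1932 of them shared with the fit without it.

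With 2 clones per group, changes of 0.25 on the log2 scale were recovered in 0% of simulated rows. The simulation changed 50 rows at each size, far fewer than the 2019 that passed in the data. Its adjusted threshold was therefore stricter, and its shares do not measure recovery in these data. A small change that did not pass is still not shown to be absent. Of the rows with the largest increases, 8 were dim in control, which limits how far their folds can be read.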

Other observations

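Other genes passed with a change of 2-fold or more. The genes below were chosen after their values were seen. The costimulatory receptor CD40 went from 8.64 and 8.64 in the control clones to 7.60 and 7.54 with shRNA 162, a change of -1.08 (limma adjusted p = 0.00023), and IL2RB, a chain of the interleukin-2 receptor, changed by -1.02. ADGRG1, an adhesion G protein coupled receptor, went from 9.69 and 9.67 to 8.29 and 8.42, a change of -1.33, and the adhesion protein TENM3 changed by -1.10. The granzyme B inhibitor SERPINB9 changed by -1.14, the secreted glutathione peroxidase GPX3 by -1.08 and AOX1 by -1.05. ETV5, a transcription factor induced by ERK signalling, changed by -1.13 and lies in a run of lower genes on chromosome 3. Increases included EMP1, an epithelial membrane protein (1.11), PLXDC2 (1.17), EMB (1.17) and CYP1B1, which hydroxylates oestrogens (1.07).

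Some genes moved in opposite directions with the hairpins. CDK15 changed by 1.02 with shRNA 162 and -0.89 with shRNA 159, a difference of 1.91 (adjusted p = 2.53e-05). RFLNB, a partner of filamin, changed by -1.07 and 0.66, a difference of -1.74 (adjusted p = 5e-05). EPAS1, the hypoxia-inducible factor HIF-2 alpha, changed by -0.58 and 0.93, a difference of -1.51 (adjusted p = 5.9e-05).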
